A study of Mus musculus with 6 samples.

Results

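The genes described here are 10 members of the Hippo pathway, taken by symbol from the 12803 genes of the expression table. They are the kinase genes Lats1 and Lats2, the coactivator genes Yap1 and Wwtr1, the transcription factor genes Tead1, Tead2 and Tead3, and the target genes Ccn1, Ccn2 and Amotl2. All 10 were listed under these symbols and all 10 were tested. Messenger RNA had been sequenced from 2 mouse kidney cell lines with 3 libraries each. The WT group was a line of murine podocyte cells that the labels call Mundel, with genotype WT. The KO group was a podocyte-derived line labelled as a Myosin 1e knockout, which lacks by its label an actin-based motor that binds membranes. Each genotype was 1 line, so the genotype and any other difference between the lines cannot be told apart, and the sources used here give no treatment, culture temperature or passage. The design text calls the replicates biological without saying how cultures were kept apart, so p-values measure the spread between these libraries. That text also names a heterozygous genotype, which is not analysed here.

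In the Hippo pathway, a kinase cascade ends in LATS1 and LATS2, which phosphorylate the coactivators YAP (Yap1) and TAZ (Wwtr1) and keep them out of the nucleus. Unphosphorylated YAP and TAZ bind TEAD transcription factors and switch on genes such as Ccn1, Ccn2 and Amotl2. The pathway reads cell density, cell shape and tension on the actin cytoskeleton, and YAP is known to act in the survival of podocytes, which form the filter around kidney capillaries.

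The TEAD proteins recognise a short core motif, CATTCC, which reads GGAATG on the other strand. The following stretches are shown because they carry this motif upstream of members, and the capitals mark it. They come from RefSeq promoters on GRCm38.p6, written 5′ to 3′ on the strand of the gene. They lie at chr3:145649986-145650235 (minus strand, Ccn1), chr9:8004705-8004764 (minus strand, Yap1), chr3:57576014-57576073 (minus strand, Wwtr1), chr9:102717727-102717756 (plus strand, Amotl2) and chr17:28350702-28350730 (minus strand, Tead3).
Ccn1: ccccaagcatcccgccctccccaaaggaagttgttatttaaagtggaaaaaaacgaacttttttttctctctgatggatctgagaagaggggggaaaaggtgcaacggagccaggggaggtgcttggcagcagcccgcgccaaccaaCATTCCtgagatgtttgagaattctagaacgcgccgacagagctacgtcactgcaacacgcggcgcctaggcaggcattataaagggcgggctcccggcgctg
Yap1: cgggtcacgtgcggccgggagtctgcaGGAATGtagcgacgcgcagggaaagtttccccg
Wwtr1: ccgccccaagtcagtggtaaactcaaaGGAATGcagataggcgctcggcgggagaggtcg
Amotl2: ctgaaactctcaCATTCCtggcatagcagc
Tead3: ccgggctCATTCCgtaCATTCCggccatc
The Ccn1 stretch is the whole 250 bases before the start site and the others are shorter windows around the motif. In Ccn1 the motif began 103 bases before the start site, in Yap1 141, in Wwtr1 136 and in Amotl2 65. The Tead3 stretch held it at 123 and again at 114 bases before 1 of 3 annotated starts. The Amotl2 and Tead3 windows overlap exons with untranslated sequence in GENCODE M21.

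Of the 10 members, 8 matched an entry in the promoter table and 5 of these had the motif on either strand in the 250 bases before a start site. Over all genes of the table, 14.4% of 27025 had it. Tead2, Lats1 and Lats2 had no match in this window, and Ccn2 and Tead1 had no entry. A match is a stretch of letters and not evidence of binding.

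The libraries held 35447096 to 42106461 reads in the listed genes, and 3 reads equal 0.0703 to 0.0856 CPM, the reads of a gene scaled to a common library size. Levels are given in CPM, as mean ± SD over the 3 libraries of a line. Myo1e, the targeted gene, stood at 16.3 to 18.9 CPM across KO and at 168 to 184 CPM across WT, the direction of the labels in all 6 libraries. Of 12 podocyte markers, 7 were listed, and Nphs1, which encodes nephrin, was not among them. The 7 summed to 758 to 1012 CPM in the KO libraries and 1537 to 1722 CPM in the WT libraries, but they did not move together: 4 were lower in KO, 2 were higher and 1 did not pass. Synpo (209 ± 71 CPM in KO, 681 ± 59 in WT) and Kirrel (165 ± 25 and 603 ± 30) were among the lower ones, and Podxl (106 ± 8.4 and 50.4 ± 4.7) and Cd2ap (390 ± 27 and 275 ± 38) were the higher ones. The summed level of 12 simple epithelial markers was 7145 to 7612 CPM in the KO libraries and 5.90 to 7.40 CPM in the WT libraries, with Cldn3, Cldn7 and Esrp1 at 0 reads in all WT libraries. Of 12 mesenchymal markers 10 were listed, of which 9 were lower and 1 higher in KO. The higher one, Cdh2, was at 703 to 805 CPM in KO and 267 to 341 CPM in WT and made up most of the KO sum of 722 to 822 CPM, against a sum of 2589 to 3103 CPM in WT. Of the lower ones, Vim was at 3.44 ± 1.6 CPM in KO and 2168 ± 257 CPM in WT, and Zeb1 at 1.71 ± 0.16 and 102 ± 0.47 CPM. The epithelial and mesenchymal markers differed between the same lines as every comparison given below, and their part in it was not tested. Of 12 leukocyte markers 9 were not listed, Ptprc among them. The 3 listed, Cd74, Csf1r and Cd68, summed to 320 to 424 CPM in KO and 260 to 327 CPM in WT, mostly Cd74 (305 ± 43 and 250.4 ± 28), and none passed the test (limma, adjusted p = 0.077 for Cd74, 0.051 for Csf1r and 0.51 for Cd68). Of 12 endothelial markers 10 were not listed, Pecam1 and Cdh5 among them. Of the 2 listed, Flt1 was lower in KO (2.03 ± 0.27 against 9.97 ± 5.1 CPM) and Eng did not pass. These marker genes are named after their values were seen.

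**Figure D1:**
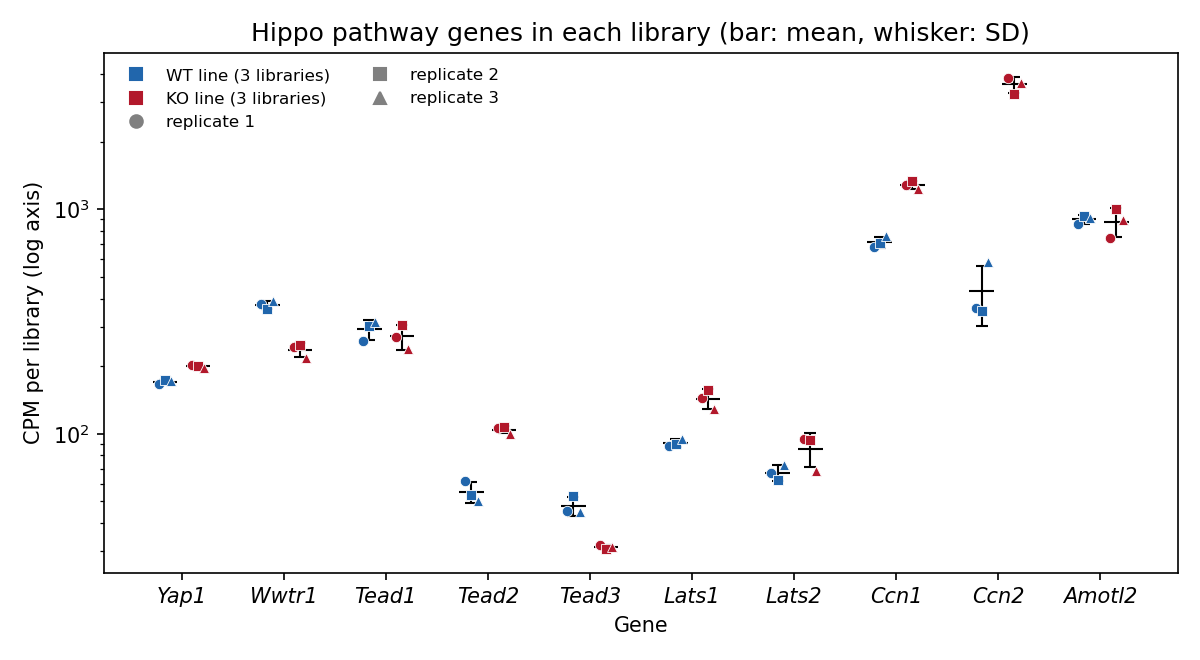
Level of each of the 10 genes in each library, in CPM on a log axis, with WT libraries in blue, KO libraries in red, a marker shape per replicate, a bar for the mean and a whisker for the SD (n = 3). The Ccn2 libraries of the lines stand furthest apart, at 353 to 579 CPM in WT and 3266 to 3856 CPM in KO. Those of Tead1, Lats2 and Amotl2 overlap.

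Of the 10 members, 6 were higher and 2 lower in the KO line, and 2 did not pass the test. A gene passed at an adjusted p under 0.05 (limma, Benjamini-Hochberg over 12616 genes tested). Most genes differed between these lines: 68.1% of all genes tested passed, 34.3% higher and 33.8% lower in KO, and 8 of the 10 members stand near that background. Only Ccn2 changed by at least 2-fold, against 27.9% of all genes tested. The median log2 fold change of the members was 0.28, and that of all genes tested was 0.01. The median size regardless of sign was 0.62 for the members and 0.51 for all genes. The libraries of the lines did not overlap in 7 of the 10, against 73.5% of all genes.

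The kinase genes were both higher in the KO line, Lats1 clearly and Lats2 at the edge of the threshold. Lats1 (chromosome 10, 7681214 to 7716460, plus strand, GRCm38) measured 144, 157 and 128 CPM across KO libraries 1 to 3, against 87.8, 89.9 and 95.1 CPM across WT. Every KO library lay above every WT library. Its log2 fold change came to 0.65 with an SE of 0.09, or 1.57-fold (limma, adjusted p = 0.00025).

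Lats2 (chromosome 14, 57689662 to 57758388, minus strand) measured 94.7, 93.6 and 68.5 CPM across KO libraries 1 to 3, against 66.7, 62.1 and 72.7 CPM across WT. KO library 3 fell inside the WT range, while the other KO libraries lay above it. Its log2 fold change came to 0.34 with an SE of 0.13 and a 95% interval of 0.03 to 0.64 (limma, adjusted p = 0.04997). The call was lost without KO replicate 1 (adjusted p = 0.17), KO replicate 2 (0.154), WT replicate 1 (0.089) or WT replicate 2 (0.15), and it held without KO replicate 3 (limma, adjusted p = 0.0026), with 0.0026 to 0.17 over the 11 alternatives. On its strand Lats2 shares 2955 bases of exon with the gene model Gm49361, which is not listed, and how reads of the shared part were assigned is not given.

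The coactivator genes moved in opposite directions. Yap1 (chromosome 9, 7931999 to 8004596, minus strand) measured 202, 201 and 197 CPM across KO libraries 1 to 3, against 166, 173 and 172 CPM across WT. The 3 KO libraries lay within a few CPM of each other and above all WT libraries. The log2 fold change of Yap1 was 0.23 with an SE of 0.07, or 1.17-fold (limma, adjusted p = 0.013).

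Wwtr1, which encodes TAZ (chromosome 3, 57455649 to 57575910, minus strand), measured 243, 250 and 218 CPM across KO libraries 1 to 3, against 377, 358 and 388 CPM across WT. All KO libraries lay below all WT libraries. It was 1.58-fold lower in the KO line, with a log2 fold change of -0.66 and an SE of 0.08 (limma, adjusted p = 0.00014).

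The balance of the coactivators differed between the lines. The ratio of Yap1 to Wwtr1 CPM was 0.832, 0.807 and 0.903 in the KO libraries and 0.440, 0.484 and 0.443 in the WT libraries. This is 1.86 times higher in KO, and the groups do not overlap. Among single genes tested, 73.5% did not overlap either. The share for ratios of other gene pairs was not computed, here or for the ratios below. The exact two-sided permutation p was 0.1, which is the floor for 3 libraries a side, so no ratio of this design can pass 0.05. Per kb of annotated exon, Yap1 made up 30.4 ± 1.2% of the YAP and TAZ transcripts in KO and 19.0 ± 0.83% in WT. Wwtr1 was thus the more abundant of the pair in both lines, at 49.5 ± 3.5 and 78.3 ± 3.2 CPM per kb. The pair together was at 71.2 ± 3.7 CPM per kb in KO and 96.7 ± 3.1 in WT.

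The TEAD genes went 3 ways. Tead2 (chromosome 7, 45215753 to 45233644, plus strand) measured 106, 107 and 100.2 CPM across KO libraries 1 to 3, against 61.9, 53.2 and 50.3 CPM across WT. Its KO libraries were all well above its WT libraries, with a log2 fold change of 0.93 and an SE of 0.09, or 1.90-fold (limma, adjusted p = 3.6e-05).

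Tead3 (chromosome 17, 28331671 to 28350817, minus strand) measured 31.9, 30.7 and 31.4 CPM across KO libraries 1 to 3, against 45.1, 52.7 and 44.7 CPM across WT. It was lower in every KO library and varied little among them. The fall was 1.51-fold, with a log2 fold change of -0.60 and an SE of 0.09 (limma, adjusted p = 0.00048).

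Tead1 (chromosome 7, 112679318 to 112906807, plus strand) measured 270, 306 and 238 CPM across KO libraries 1 to 3, against 258, 303 and 314 CPM across WT. The libraries of the lines were interleaved. Its log2 fold change was -0.11 with a 95% interval of -0.37 to 0.16 (limma, adjusted p = 0.43). A difference of any size within that interval is compatible with these libraries.

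Per kb of exon the make-up of the TEAD transcripts differed, with more Tead2 and less Tead1 in KO. Tead2 made up 43.8%, 41.3% and 44.1% of the summed level of the 4 TEAD genes in the KO libraries and 31.1%, 24.4% and 23.3% in the WT libraries. Tead1 made up 39.3 ± 2.4% in KO and 48.8 ± 2.9% in WT, and Tead3 9.24 ± 0.72% in KO and 16.1 ± 1.2% in WT. The share of Tead4, the remaining paralog, overlapped between the lines at 8.41 ± 0.84% and 8.91 ± 1.7%. The summed TEAD level was 50.7 ± 3.3 CPM per kb in KO and 44.0 ± 2.1 in WT. The ratio of Tead1 to Tead2 CPM was 2.05 times lower in KO and that of Tead3 to Tead1 1.40 times lower, without overlap of the groups and with p = 0.1 each by the exact two-sided permutation test. Of the 5 ratios tested, the other two were Lats2 to Lats1, 1.24 times lower in KO, and Ccn1 to Ccn2, 4.75 times lower, and all 5 had an adjusted p of 0.1 by that exact permutation test.

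**Figure D2:**
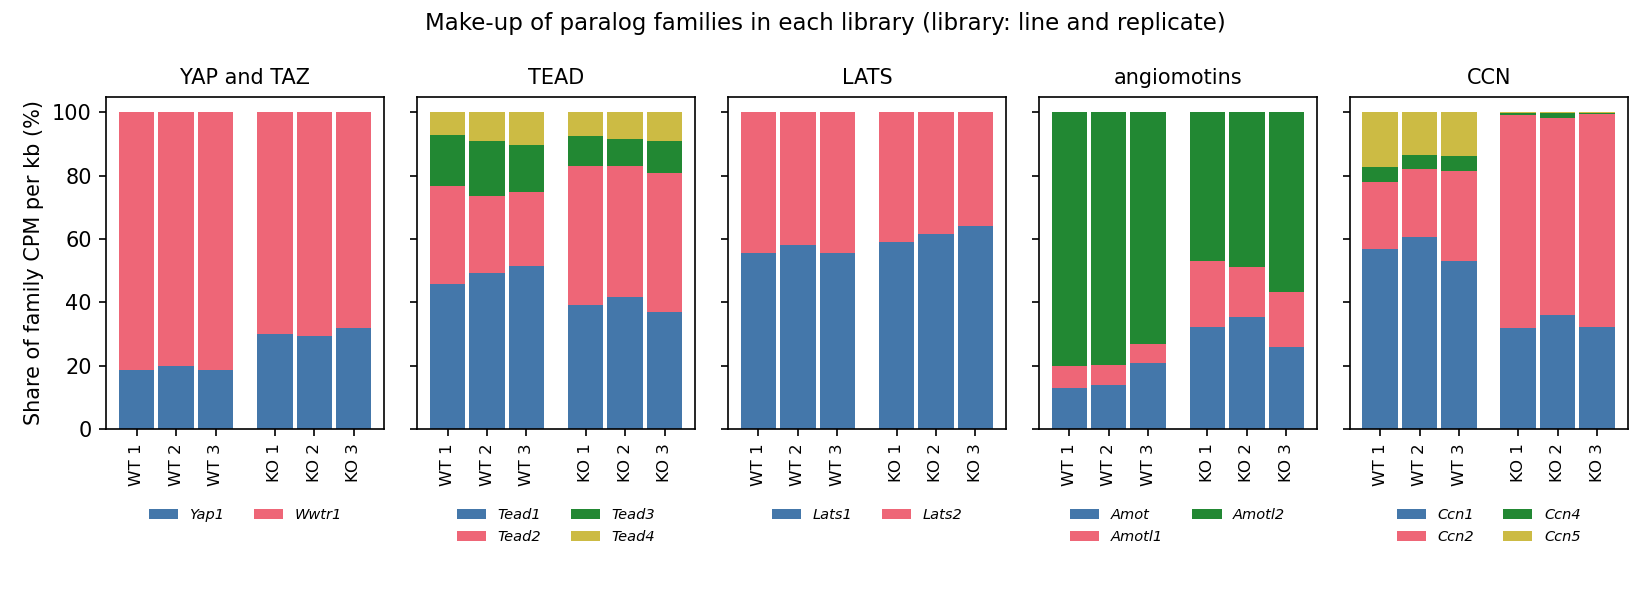
Share of each paralog in the summed CPM per kb of its family, in percent, for the 3 WT and 3 KO libraries. The Yap1 share averages 19.0% in WT and 30.4% in KO, the Tead2 share 23.3% to 31.1% and 41.3% to 44.1%, and the Ccn2 share 21.4% to 28.5% and 62.1% to 67.5%.

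Among the targets, both CCN genes were higher in the KO line and Amotl2 was not distinguishable. Ccn2, also known as Ctgf, encodes a secreted matricellular protein linked to fibrosis (chromosome 10, 24595442 to 24598683, plus strand). It measured 3856, 3266 and 3661 CPM across KO libraries 1 to 3, against 362, 353 and 579 CPM across WT. WT library 3 stood above the other WT libraries, and all WT libraries remained far below the KO libraries. The log2 fold change of Ccn2 was 3.09 with an SE of 0.19, or 8.54-fold (limma, adjusted p = 2.2e-06), and 569 genes of those tested had a larger rise. Ccn2 shares 665 bases of exon with Gm15270, an antisense transcript on the minus strand. Gm15270 was at 8.56 ± 2.9 CPM in KO and 1.12 ± 0.23 CPM in WT, and since the strand setting of the counting is not given, reads of the overlap cannot be told apart.

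Ccn1, also known as Cyr61, encodes a related matricellular protein that binds integrins (chromosome 3, 145646976 to 145649981, minus strand). It measured 1287, 1339 and 1226 CPM across KO libraries 1 to 3, against 678, 704 and 760 CPM across WT. Every KO library was above every WT library, with a log2 fold change of 0.85 and an SE of 0.10, or 1.80-fold (limma, adjusted p = 8.5e-05). The rise of Ccn2 was larger than that of Ccn1, so that their order changed. Ccn1 was the more abundant per kb in the WT line, at 354 ± 21 against 151 ± 45 CPM per kb for Ccn2, and Ccn2 in the KO line, at 1256 ± 105 against 636 ± 28 CPM per kb.

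Amotl2 encodes an angiomotin-like scaffold that binds YAP and is itself a known YAP target (chromosome 9, 102716672 to 102733418, plus strand). It measured 747, 1002 and 891 CPM across KO libraries 1 to 3, against 858, 934 and 916 CPM across WT. The KO libraries spread around the WT range on both sides. Its log2 fold change came to -0.05 with a 95% interval of -0.33 to 0.24 (limma, adjusted p = 0.76).

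**Figure D3:**
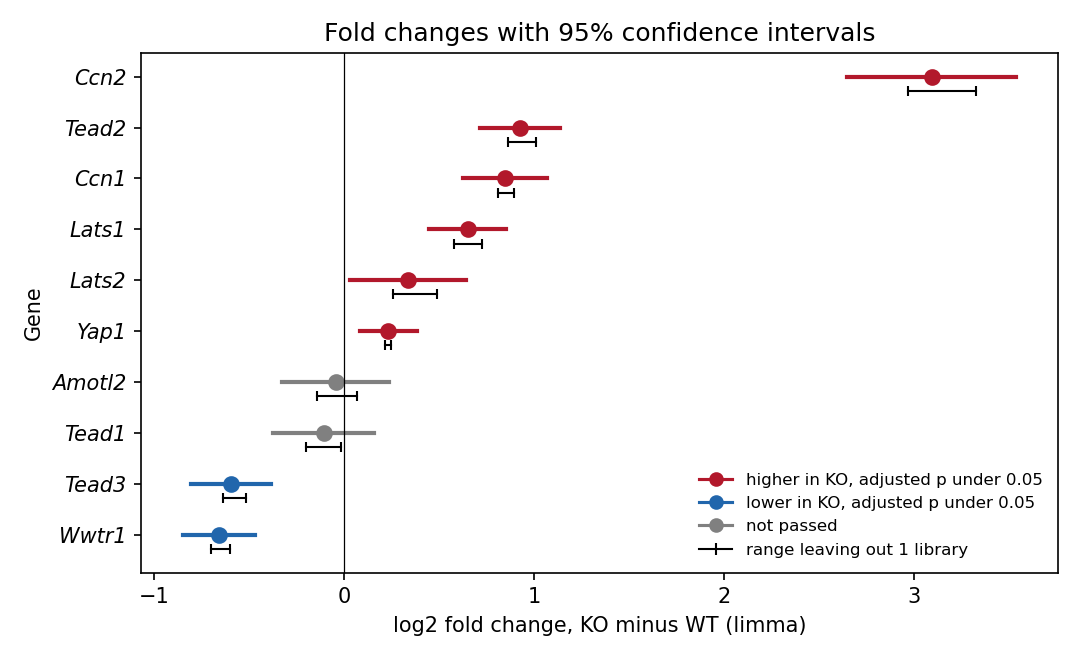
Log2 fold change of each gene, KO minus WT, with its 95% confidence interval (coloured line) and the range when 1 library is left out (black line). Ccn2 stands at 3.09, the 9 other genes lie between -0.66 and 0.93, and the intervals of Tead1 and Amotl2 include 0.

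Compared per kb of exon, the 10 genes spanned a wide range in each line. In the KO line the order from the top was Ccn2, Ccn1, Amotl2 (140 ± 20 CPM per kb), Wwtr1, Tead2 (21.8 ± 0.77), Yap1 (21.6 ± 0.29), Tead1 (19.98 ± 2.5), Lats1 (19.6 ± 2.0), Lats2 (12.3 ± 2.1) and Tead3 (4.67 ± 0.093). The library ranges of neighbours overlapped from Tead2 to Lats1, so these 4 were not separable in level. In the WT line the order was Ccn1, Ccn2, Amotl2 (144 ± 6.3), Wwtr1, Tead1 (21.5 ± 2.2), Yap1 (18.4 ± 0.43), Lats1 (12.5 ± 0.51), Tead2 (11.5 ± 1.3), Lats2 (9.63 ± 0.76) and Tead3 (7.08 ± 0.68). There the ranges of Ccn2 and Amotl2 overlapped, as did those of Lats1 and Tead2. Exon length is the union of all annotated exons, which lowers the value of genes with many alternative ends.

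KO library 3 was the lowest KO library in 7 of the 10 members. Across 12474 genes with an annotated length, its deviations from the KO mean had a Spearman correlation of -0.37 with exon length, against 0.11 and 0.35 in KO libraries 1 and 2 and -0.13 to 0.10 in the WT libraries. Genes are not independent replicates, and the part of transcript length in these levels was not tested. Without KO replicate 3, the members still held 6 called higher and 2 called lower.

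The nearest profiles over the 6 libraries were sought among 6315 other genes, as the distance between log2 CPM values centred on their mean. Closest to Yap1 were Parg, Leprotl1 and Sec23ip, at distances of 0.02, 0.03 and 0.06. For Ccn1 they were Ints2, Zbtb43 and Psme3 (0.09, 0.09 and 0.10), and for Ccn2 they were Nabp1, Lad1 and Stk39 (0.20, 0.40 and 0.46). For Ccn1, 49 genes lay within 2 times the smallest distance, against 2 for Yap1 and 1 for Ccn2. The distance includes the difference between the lines. Nabp1 went from 13.1 ± 3.4 CPM in WT to 106 ± 13 CPM in KO, beside the far higher levels of Ccn2.

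The other core and regulatory genes of the pathway, from upstream inputs to TEAD cofactors, also went both ways. Of 28 such genes 25 were listed and tested, of which 11 were higher and 6 lower in KO and 8 did not pass, with a median log2 fold change of 0.15. The share that passed was at the background of 68.1%. The angiomotin Amotl1 was at 492 ± 53 CPM in KO and 120 ± 1.3 CPM in WT (log2 fold change 2.03), and its relative Amot at 730 ± 218 and 249 ± 88 CPM (1.57). The share of Amotl2 in the angiomotin transcripts per kb was 50.9 ± 5.3% in KO and 77.7 ± 4.0% in WT, while its own level overlapped between the lines. The kinase gene Stk4, which encodes MST1, rose from 63.1 ± 5.1 to 159 ± 1.3 CPM. Its paralog Stk3, which encodes MST2, was at 67.6 ± 5.4 CPM in KO and 70.1 ± 5.5 CPM in WT, short of the threshold (limma, adjusted p = 0.63), and is named as that paralog, after its values were seen.

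The scaffold gene Sav1, whose protein joins the MST kinases to LATS, fell from 280.02 ± 19 to 90.1 ± 9.0 CPM (log2 fold change -1.64). The atypical cadherin Fat4 fell from 178 ± 26 to 14.7 ± 4.5 CPM (-3.64), and the FERM-domain gene Frmd6 from 149.6 ± 18 to 82.1 ± 3.8 CPM (-0.86). Each of these was lower in all 3 KO libraries, which the rule for named genes required. Over all genes tested, the libraries of the lines did not overlap in 73.5%.

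The STRIPAK complex carries the phosphatase PP2A to the MST kinases and opposes them. Of 12 genes listed for it here, which need not be the whole complex, 6 were higher and 1 lower in KO and 5 did not pass. Their median log2 fold change was 0.19. The share that passed was 58.3%, against 68.1% of all genes tested, and this gap was not tested for so few genes. Mob4 rose from 55.3 ± 3.4 to 107 ± 5.0 CPM, the catalytic subunit Ppp2ca from 250 ± 7.8 to 362 ± 14 CPM and Fgfr1op2 from 71.0 ± 0.88 to 90.9 ± 6.4 CPM. The 1 lower gene, Strip2, is named after its values were seen and was near the lower limit of the table, at 0.134 ± 0.056 CPM in KO and 1.28 ± 0.17 CPM in WT, with a log2 fold change of -3.08 that ranged from -3.32 to -1.004 over the alternatives. Pdcd10 (log2 fold change 0.23) is also named after its values were seen, because its call was lost when any 1 of the 6 libraries was left out (limma, adjusted p = 0.059 to 0.15) and with the replicate number as a block (0.057).

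A published signature of YAP and TAZ targets in cancer did not move as a block. Without the members it holds 18 genes, of which 17 were tested. Of these 17, 6 were higher and 9 lower in KO and 2 did not pass, with a median log2 fold change of -0.58. The members were taken out of this list, so these counts and that median are not those of the whole signature. Over all 10 members, 6 were higher and 2 lower in KO. In all, 88.2% of the 17 tested genes passed, against 68.1% over the whole table (34.3% higher, 33.8% lower). The growth-factor binding protein gene Igfbp3 was at 17.5 ± 3.7 CPM in KO and 0.703 ± 0.17 CPM in WT (log2 fold change 4.59). The RNA-binding protein gene Rbms3 was at 7.55 ± 1.3 and 1.09 ± 0.29 CPM (2.79). Over the alternatives Igfbp3 ranged from 3.42 to 4.78 and Rbms3 from 2.03 to 2.98 on that scale. F3, which encodes tissue factor, the trigger of coagulation, measured 1263, 1326 and 1458 CPM across KO, against 220, 193 and 267 CPM across WT (2.58). The rule for named genes required groups that do not overlap, so the separation of F3 in all libraries follows from that rule. It was shared by 73.5% of all genes tested.

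Among those that fell, the matrix gene Ccdc80 went from 1116 ± 256 to 289 ± 15 CPM (-1.93). The receptor tyrosine kinase gene Axl went from 860 ± 149 to 253 ± 33 CPM (-1.76), and Fjx1 from 11.1 ± 3.9 to 4.31 ± 1.8 CPM (-1.41). Ankrd1, a textbook YAP target, was at 919 ± 58 CPM in KO and 759 ± 134 CPM in WT, short of the threshold (limma, adjusted p = 0.093). It was named for its standing as a target, after its values were seen. The motif CATTCC was found before a start site in 4 of the 12 signature genes with a promoter entry. Among the other core and regulatory genes it was found in 10 of 23, and over all genes of the promoter table in 14.4%.

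The other CCN genes that were listed, Ccn4 and Ccn5, were called in the opposite direction to Ccn1 and Ccn2, firmly only for Ccn5. Of 4 genes, 2 were listed and both were lower in KO, against 33.8% of all genes tested. Ccn3 and Ccn6 were not listed. Ccn5 measured 4.08, 8.59 and 2.71 CPM across KO libraries 1 to 3, against 196, 150 and 190 CPM across WT, a log2 fold change of -5.27 with an SE of 0.36 (limma, adjusted p = 3.5e-06). Without KO replicate 2, its KO mean of 5.13 CPM became 3.40 CPM. Ccn4 was at 68.8, 155 and 36.8 CPM in KO and at 154, 144 and 189 CPM in WT, so its groups overlapped (log2 fold change -1.14, limma, adjusted p = 0.043). It kept the call when KO replicate 2 was left out, where its KO mean went from 86.8 to 52.8 CPM (limma, adjusted p = 0.00094), and lost it when any other library was left out (0.065 to 0.12). Ccn4 is outside the rule for named genes and was chosen after its values were seen. Per kb of exon, Ccn5 made up 14.9 ± 2.0% of the CCN transcripts in WT and 0.141 ± 0.090% in KO, and the summed level of the 4 listed CCN genes was 626 ± 74 and 1911 ± 82 CPM per kb.

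**Figure D4:**
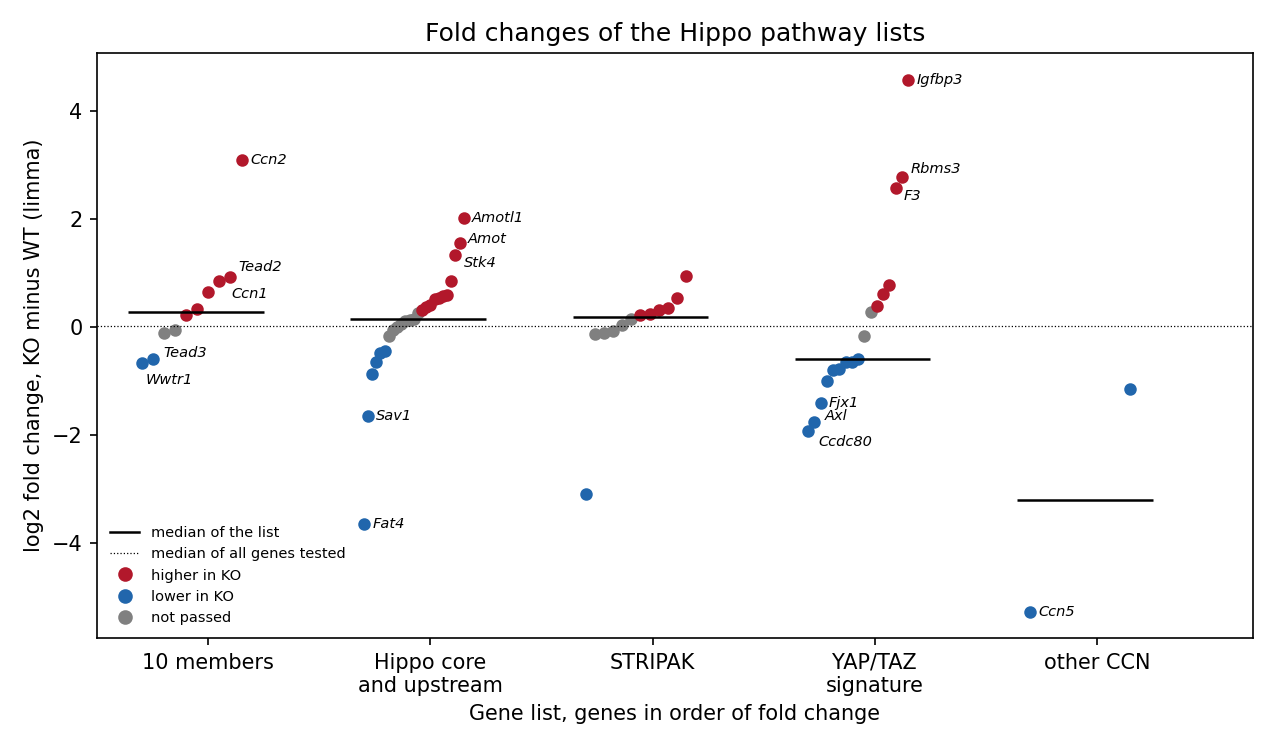
Log2 fold change, KO minus WT, of every tested gene in the 5 lists, ordered within a list, with the median of the list (solid bar) and of all genes tested (dotted line, 0.01). Each of the first 4 lists has genes called higher (red) and lower (blue), and both tested genes of the last list are lower.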

How the data were processed

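The authors deposited 1 table of log2 CPM with a column for each of 6 libraries. The submitters' processing notes list build GRCm38, edgeR, featureCounts, Subread 1.6.4, STAR 2.7.3a and Trimmomatic 0.39, and per the labels' protocols the library kit was stranded. For annotation, strand setting, filter and prior the sources used here give nothing. All columns share a lowest value of -5.26. Subtracting it before the log left whole numbers of reads in 100% of values (tolerance 0.001 reads, widened in proportion for high counts). Reads and CPM without the prior were taken from these.

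The test was limma 3.58.1 (R 4.3.3) on the deposited log2 values, with an intensity trend and no covariates, on the 12616 genes above 0 log2 CPM in at least 3 libraries. Exact permutation tests used scipy 1.17.1. Positions and exon lengths came from GENCODE M21 (GRCm38), where 12655 listed genes matched 1 gene, and need not be the authors' annotation.

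The members and lists were chosen with earlier results of these data known. Named genes were the 10 members, up to 3 risen and 3 fallen genes of each pathway list by size among those called, with groups not overlapping and a higher line at 1 log2 CPM or more, and the 3 nearest profiles of Yap1, Ccn1 and Ccn2 among genes of at least 5 log2 CPM. Exceptions are stated. The markers were 12 each of podocyte, leukocyte, endothelial, simple epithelial and mesenchymal cells. Alternatives were every gene tested, 1 CPM added, median centring, limma voom on recovered reads, the replicate number as a block, and each library left out.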

Additional observations from a re-analysis of the deposited data

How the results depend on the processing

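No direction of a member that passed changed under the 11 alternatives, and only Lats2 lost its call, in 5 of them. Besides the 4 left-out libraries named in the report, this was the fit with the replicate number as a block (log2 fold change 0.34, limma, adjusted p = 0.074). Amotl2, which did not pass, had a log2 fold change of 0.067 without KO replicate 1 and of -0.145 to 0.067 over the left-out libraries. The members called higher were 5 to 6 and those called lower 2 when 1 library was left out, and 5 and 2 with the replicate block. Over all genes, 3803 to 4191 were higher and 3770 to 4137 lower without 1 library, and 4218 and 4177 with the block.

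With 1 library left out, the core and upstream genes held 11 to 13 higher and 6 lower, STRIPAK 5 higher and 1 lower, the YAP and TAZ signature 6 to 7 higher and 8 to 9 lower, and the other CCN genes 0 higher (limma, also 0 at an unadjusted p under 0.05, since both were lower) and 1 to 2 lower. The log2 differences of the ratios ran from 0.85 to 0.94 for Yap1 to Wwtr1, -0.39 to -0.23 for Lats2 to Lats1, -2.43 to -2.13 for Ccn1 to Ccn2, -1.21 to -0.92 for Tead1 to Tead2 and -0.59 to -0.38 for Tead3 to Tead1. With the block their exact permutation p was 0.25, the smallest 3 pairs allow. Same-numbered libraries had correlations of their deviations of 0.10, 0.08 and -0.10, so the numbers were not taken as pairs. Before centring, the median log2 CPM of KO minus WT was -0.02, so centring raised each log2 fold change by that amount, for Yap1 from 0.23 to 0.25. Low counts limit some genes: Strip2 rested on 15 reads over the KO libraries and its log2 fold change ranged from -3.32 to -1.004.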
